A study of Mus musculus with 6 samples.

Results

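The MHC class I antigen processing genes examined here were 10 genes fixed by name, Tap1, Tap2, Tapbp, Psmb8, Psmb9, Psmb10, B2m, Nlrc5, Erap1 and Psme1. A probe set, the group of short array probes that reads 1 transcript, was taken when its only annotated symbol was one of these names. All 10 genes had at least 1 such probe set, 17 in all, and the brightest per gene was used. All 10 passed the filter on dim probe sets, among 13042 genes compared of 18193 with a probe set of their own.

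Expression was measured in the small intestine of mice in which tamoxifen induced deletion of Fitm2 (FIT2), a protein of the endoplasmic reticulum that takes part in lipid droplet formation. The deletion mice, KO in the labels, carried ROSA26CreERT2 together with the L/L alleles, and the controls carried the L/L alleles alone. L/L is not spelled out in the labels and usually denotes loxP-flanked alleles. Both groups are described with tamoxifen at 100 µg per g body weight, injected on days 1, 2 and 3. Whole small intestines, flushed, were harvested on days 2, 3 and 5. Whether the mice of days 2 and 3 were given all doses is not stated in the labels. ROSA26 drives CreERT2 in most cell types, so the deletion was not restricted to the epithelium, and only KO mice carried the recombinase, whose presence and the loss of Fitm2 cannot be told apart. Each array held pooled RNA, from 7, 6 and 7 KO mice and 6, 6 and 8 L/L mice on days 2, 3 and 5. There was thus 1 array per genotype and day, 6 in all, and their number limits the precision of every value.

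Class I molecules show peptides of the cell's own proteins to CD8 T cells. The proteasome cuts proteins into peptides, the TAP transporter carries these into the endoplasmic reticulum, and a loading complex places them on a heavy chain paired with beta-2-microglobulin. Interferons are known to induce most of these genes, in enterocytes as in other cells, and NLRC5 is known as the transactivator of class I genes.

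Several features of the arrays touch every value below. The Fitm2 probe set had intensities of 123, 127 and 120 in KO on days 2, 3 and 5, against 193, 223 and 211 in L/L, and the Esr1 probe set had 367, 465 and 355 in KO, against 56.1, 56.1 and 39.8 in L/L. CreERT2 contains part of an estrogen receptor. Xist, the RNA that coats the inactive X chromosome in female cells, had 1090, 3030 and 1398 in KO, against 2433, 3126 and 3052 in L/L, and the Y-linked Eif2s3y had 497, 273 and 635 in KO, against 338, 326 and 466 in L/L. On days 2 and 5 Xist was thus lower and Eif2s3y higher in KO, and on day 3 Eif2s3y was lower in KO with Xist nearly equal. The part of these differences between pools in the results was not tested. Markers of the epithelium were bright on all arrays, with Epcam between 15195 and 16281 and Vil1 between 13123 and 14602. In whole tissue, fewer cells of a type and less RNA per cell cannot be told apart.

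Tap1 and Psmb9 lie head to head on chromosome 17, with annotated starts 226 bases apart, and their promoter windows overlap. The sequence between the 2 starts is shown because both genes are described below with genotype differences that became smaller or turned negative by day. B2m and Erap1 are shown as members whose windows hold a match to the interferon-stimulated response element. Ifit1, no class I gene, is shown beside them as an interferon-induced gene that passed the genotype test. All are RefSeq sequences of build GRCm38.p6 on the strand of the named gene (Tap1 for the shared stretch), 5′ to 3′, and capitals mark motif matches.
Tap1 and Psmb9, chr17:34187331-34187555, plus strand: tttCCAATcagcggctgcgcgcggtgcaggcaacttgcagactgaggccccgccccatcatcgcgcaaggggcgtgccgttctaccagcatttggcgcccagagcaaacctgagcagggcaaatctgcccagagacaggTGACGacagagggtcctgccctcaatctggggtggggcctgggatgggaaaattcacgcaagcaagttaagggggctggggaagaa
B2m, chr2:122147537-122147686, plus strand: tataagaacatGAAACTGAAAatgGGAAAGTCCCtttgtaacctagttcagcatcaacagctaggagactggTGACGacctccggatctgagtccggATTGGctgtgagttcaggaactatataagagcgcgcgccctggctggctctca
Erap1, chr13:74639793-74639862, plus strand: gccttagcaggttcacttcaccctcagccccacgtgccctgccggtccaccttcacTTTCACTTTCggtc
Ifit1, chr19:34640769-34640888, plus strand: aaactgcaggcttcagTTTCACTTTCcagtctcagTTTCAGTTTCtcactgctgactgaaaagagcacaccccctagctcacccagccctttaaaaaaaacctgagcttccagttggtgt

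The 5 motifs were searched on both strands of 300-base windows, 250 bases before to 50 after each start, and were chosen after these sequences had been read. Of the class I genes, 8 had a window in the table; Tap2 and Nlrc5 did not. The response element core, 2 copies of GAAA that are 2 bases apart, was matched in B2m, Erap1 and Psme1, and in 3.44% of 32851 windows of all genes. The match in B2m lay at positions -139 to -130 from the start, that in Erap1 spanned the start from -4 to 6, and that in Psme1 lay at 10 to 19. Ifit1 held 2 matches, the first at -104 to -95. The GAS motif TTCNNNGAA, the gamma-activated sequence, was matched in Psmb8 (8.3% of all windows). The Y box ATTGG was matched in Tap1, Psmb9, Tapbp and B2m (37.4%) and the CRE core TGACG in Tap1, Psmb9 and B2m (20.8%). The kappaB motif (GGGA, any base, TTTCC) was matched in B2m (0.411%). Tap1 and Psmb9 share the same Y box and CRE core, at -222 to -218 and -86 to -82 from the Tap1 start. In B2m a CRE core and the Y box lie at -78 to -74 and -53 to -49. The response element core and the kappaB match of B2m lie 3 bases apart. A match describes letters, not binding.

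Over the 3 days, the question was whether the class I processing genes differed between KO and L/L in the same way on each day. Nlrc5, Tap1, Tap2 and Tapbp stood highest in KO, with mean differences of 0.57, 0.38, 0.30 and 0.25 on the log2 scale, and Psmb9, Psmb10, Psme1 and Erap1 had mean differences below 0. After adjustment over all genes none of the 10 passed the limma test, at adjusted p between 0.379 and 0.929. In the background 0.023% of the 13042 genes passed as higher and 0% as lower. At an unadjusted p under 0.05, 3 of 10 were higher (background 7.68%) and 0 were lower (background 4.61%). The difference was above 0 on all 3 days in 6 of 10 (background 22.1%) and below 0 on all 3 in 1 of 10 (background 17.4%). In 0 of 10 did all KO arrays lie above all L/L arrays or below them (background 7.48% and 5.66%). The median of the 10 mean differences was 0.11, beside 0.01 over all genes tested. Without probe sets that can bind several transcripts, which removes Tap2, Psmb8 and B2m, the median of the other 7 was -0.02. Those 3 probe sets carry the suffix _a_at, and all 3 had mean differences above 0 (0.30, 0.14 and 0.07). With probe sets averaged per gene, Tap1 did not reach the filter and the median of the other 9 was 0.04.

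**Figure D1:**
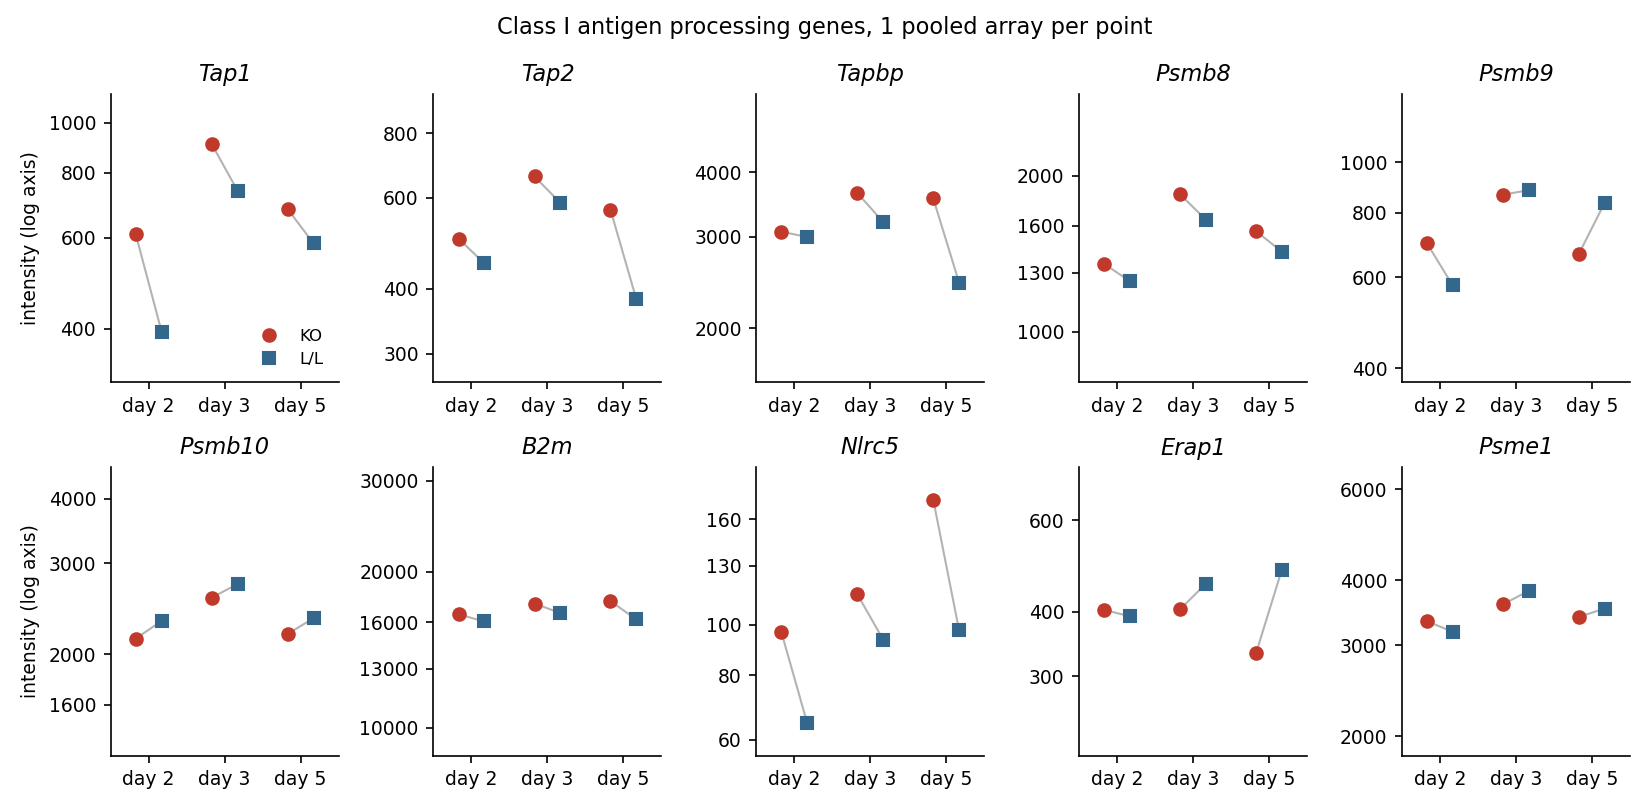
Intensity of the brightest probe set of each class I processing gene on the 6 arrays, on log axes that span the same fold in each panel. Red circles are KO, blue squares L/L, each 1 pooled array, joined within a day. Nlrc5, Tap1, Tap2, Tapbp, Psmb8 and B2m were above L/L on each day, Psmb10 was below on each day, and Psmb9, Erap1 and Psme1 crossed.

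Nlrc5 had intensities of 96.9, 115 and 174 in KO on days 2, 3 and 5, against 64.7, 93.7 and 97.6 in L/L. KO was higher on each day, but KO day 2 lay below L/L day 5, so the groups overlapped. The differences were 0.58, 0.29 and 0.84, a mean of 0.57 ± 0.27 (SD over 3 days; SE 0.12; adjusted p = 0.379), or 1.49-fold. The 95% interval of the fit ran from 0.27 to 0.87. Nlrc5 has 1 probe set here.

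The TAP transporter is a heterodimer encoded by Tap1 and Tap2. Tap1 had intensities of 609, 910 and 681 in KO, against 395, 739 and 585 in L/L. Both genotypes were highest on day 3, and L/L day 2 was the lowest array of all. The differences were 0.63 on day 2, 0.30 on day 3 and 0.22 on day 5, with a mean of 0.38 ± 0.22 (SD; adjusted p = 0.381). Another Tap1 probe set above the filter was dim, at 49.0 to 56.8 on the 6 arrays, and differed by 0.04. The remaining Tap1 probe sets did not reach the filter threshold.

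Tap2 had 500, 659 and 569 in KO, against 448, 587 and 382 in L/L. KO was higher on each day, most on day 5, where L/L was at its lowest. The differences were 0.16, 0.17 and 0.57, with a mean of 0.30 ± 0.24 (SD; adjusted p = 0.394), or 0.16 without day 5. Tap1 thus differed most on day 2 and Tap2 on day 5.

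Tapbp encodes tapasin, which bridges TAP and the empty class I molecule. It had 3070, 3646 and 3559 in KO, against 2998, 3206 and 2447 in L/L. The genotypes lay within 2.41% of each other on day 2 and apart on day 5, where L/L had its lowest value. The differences were 0.03, 0.19 and 0.54, with a mean of 0.25 ± 0.26 (SD; adjusted p = 0.414), or 0.11 without day 5. A second Tapbp probe set had 714, 1057 and 546 in KO, against 781, 708 and 281 in L/L, and differed by -0.13, 0.58 and 0.96. It shared the increase of the difference by day, with a mean of 0.47.

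B2m, the light chain common to all class I molecules, was nearly flat. Its intensities were 16567, 17376 and 17564 in KO, against 16046, 16664 and 16191 in L/L. The differences of 0.05, 0.06 and 0.12 averaged 0.07 ± 0.04 (SD; adjusted p = 0.582), with a 95% interval from -0.08 to 0.23. A second B2m probe set differed by -0.02, 0.07 and 0.18.

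The immunoproteasome subunits Psmb8, Psmb9 and Psmb10 replace the standard catalytic subunits Psmb5, Psmb6 and Psmb7. Their mean differences had different signs. Psmb8 had 1352, 1841 and 1563 in KO, against 1250, 1644 and 1426 in L/L, a difference of 0.14 ± 0.03 (SD; adjusted p = 0.413) that was nearly equal on the 3 days. Psmb10 had 2145, 2574 and 2190 in KO, against 2321, 2735 and 2350 in L/L, a difference of -0.10 ± 0.01 (SD; adjusted p = 0.477). Psmb8 thus differed by 8.13% to 11.97% and Psmb10 by -7.57% to -5.87% on single days.

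Psmb9 had 699, 867 and 666 in KO, against 579, 884 and 836 in L/L. KO was higher on day 2, close to L/L on day 3 and lower on day 5. The differences were 0.27, -0.03 and -0.33, and their mean of -0.03 ± 0.30 (SD; adjusted p = 0.929) describes no single day. Without day 5 the mean was 0.12 (adjusted p = 0.794).

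The standard subunits differed little. Psmb5, Psmb6 and Psmb7 had mean differences of 0.11, 0.07 and 0.03 (adjusted p = 0.5005, 0.613 and 0.837). Set against its counterpart on the same arrays, Psmb8 moved by 0.02 ± 0.12 relative to Psmb5, Psmb9 by -0.10 ± 0.33 relative to Psmb6 and Psmb10 by -0.13 ± 0.08 relative to Psmb7 (differences of log2 differences, SD over 3 days, not tested). Of the 11 other standard subunits of the 20S core, 0 passed, 3 were higher on all 3 days and 0 lower, with a median of 0.03. The largest were Psmb3 (0.11), Psma3 (0.09), Psma1 (-0.08) and Psma5 (-0.04).

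Psme1 encodes a subunit of the PA28 activator, which opens the proteasome core. It had 3337, 3597 and 3401 in KO, against 3185, 3818 and 3531 in L/L, with differences of 0.07, -0.09 and -0.05. The mean of -0.02 ± 0.08 (SD; adjusted p = 0.882) was smaller than its spread, with a 95% interval from -0.19 to 0.14. Of the other activators, Psme3 differed by 0.07 and Psme4 by 0.00, while Psme2, the partner of Psme1, has no probe set of its own here.

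Erap1, the aminopeptidase that trims peptides in the endoplasmic reticulum, had a mean difference of the opposite sign to the transporter and loading genes. It had 403, 404 and 332 in KO, against 391.5, 453 and 482 in L/L. The genotypes were close on day 2, and on day 5 KO was at its lowest and L/L at its highest. The differences were 0.04, -0.17 and -0.54, with a mean of -0.22 ± 0.29 (SD; adjusted p = 0.462). It was -0.06 without day 5 and -0.35 without day 2. A second Erap1 probe set gave 0.13, -0.18 and -0.61, the same order with a day 5 value of 269 in KO, against 413 in L/L.

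**Figure D2:**
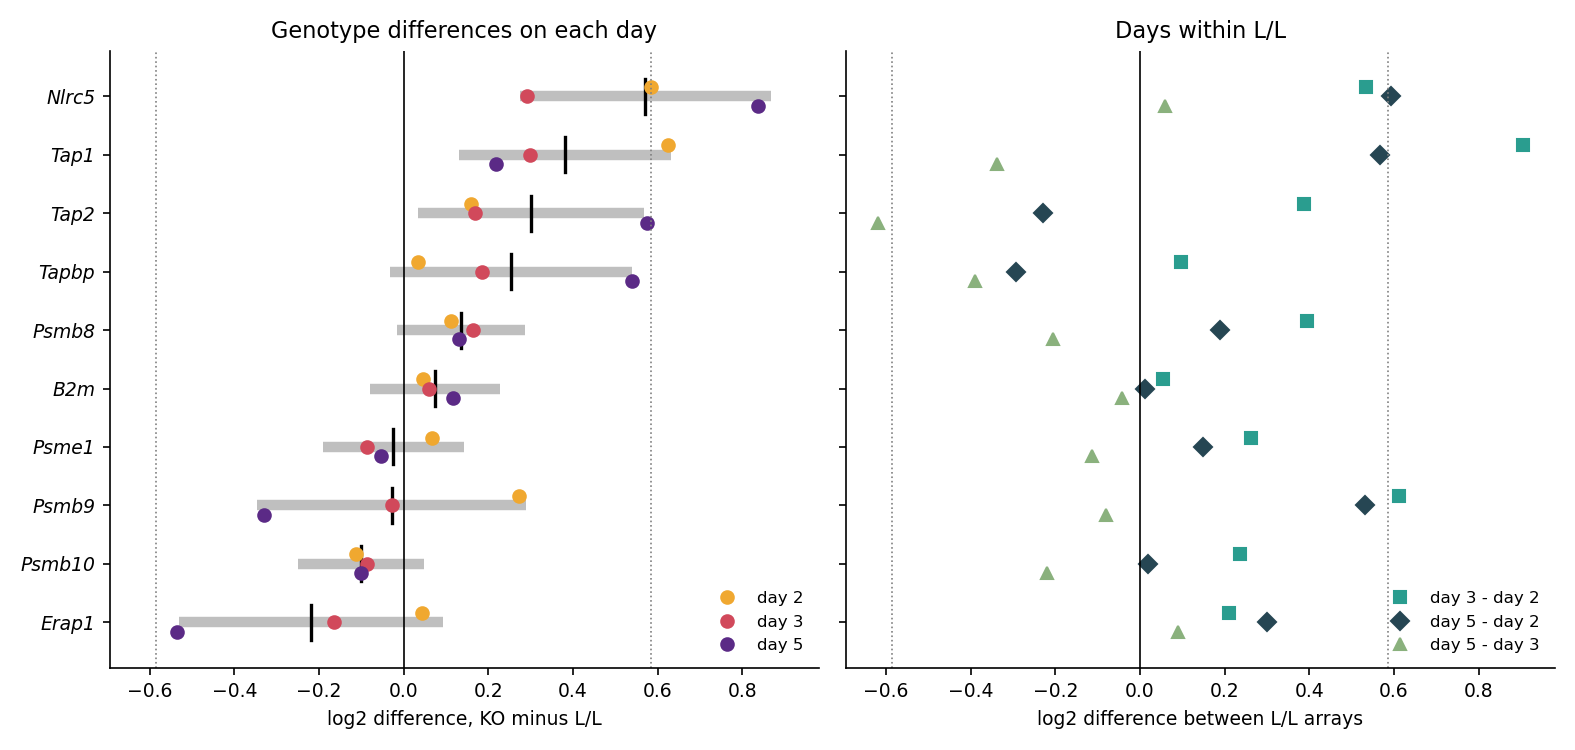
Left, log2 difference KO minus L/L of each class I processing gene on days 2, 3 and 5 (points), the mean of the 3 days (black bar) and the 95% interval of the moderated fit (grey). Right, differences between the L/L arrays of different days for the same genes; dotted lines mark 1.5-fold. The intervals of Nlrc5, Tap1 and Tap2 lie above 0 before adjustment, and several L/L day differences are as large as the genotype differences.

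On single days there was 1 array per genotype and no test. Genes at 1.5-fold or more were counted, by the brightest probe set of each. On day 2 the count was 1 of 10, Tap1 at 1.54-fold (background 0.429% higher and 0.107% lower), with Nlrc5 just short of the limit at 1.499-fold. On day 3 the count was 0 of 10 (background 1.1% and 0.506%), with Tap1 at 1.23-fold and Nlrc5 at 1.22-fold in front. On day 5 the count was 1 of 10, Nlrc5 at 1.79-fold (background 5.19% and 3.1%), followed by Tap2 at 1.49-fold and Tapbp at 1.45-fold, while Erap1 was at 0.69-fold. Differences were above 0 in 9, 6 and 6 of the 10 on days 2, 3 and 5, beside 55.5%, 47.5% and 54% of all genes. The median of the 10 was 0.09, 0.11 and 0.12, beside 0.01, -0.01 and 0.02 over all genes. At a 2-fold limit the count was 0 of 10 on each day, beside a background of 0.092%, 0.184% and 1.28% of genes higher and 0.0307%, 0.092% and 0.882% lower on the 3 days.

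The change of the genotype difference with day was tested as a slope per day. Tapbp and Tap2 had slopes of 0.17 and 0.15 (SE 0.05 each; adjusted p = 0.145 and 0.209), and Psmb9, Erap1 and Tap1 had -0.19, -0.19 and -0.12 (adjusted p = 0.127, 0.12 and 0.313). None of the 10 passed (background 0.644% rising and 0.583% falling). In simulated data a slope of 0.25 per day was recovered in 5.97% of genes, so slopes of this size can be missed. At an unadjusted p under 0.05, Tapbp and Tap2 had positive and Psmb9 and Erap1 negative slopes, which is 2 of 10 in each direction (background 10.6% and 7.87%). With the trend setting of limma's eBayes, Tapbp passed (adjusted p = 0.0427) and the count over all genes was 531 in place of 160. Nlrc5 had a slope of 0.11 (adjusted p = 0.5), and the other 4 lay between -0.03 and 0.02.

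Heavy chains of the classical class I molecules had the day pattern of Tap2 and Tapbp. H2-D1 had 10538, 12284 and 12473 in KO, against 10258, 10585 and 8302 in L/L, and H2-K1 had 12441, 13866 and 15099 in KO, against 11639, 13095 and 10227 in L/L. Their differences on days 2, 3 and 5 were 0.04, 0.21 and 0.59 for H2-D1 and 0.10, 0.08 and 0.56 for H2-K1. As for Tap2 and Tapbp, the L/L array of day 5 was the lowest of the 6. Slopes were 0.18 and 0.17 (adjusted p = 0.127 and 0.182). Both probe sets can bind related heavy chain transcripts, so which gene gave the signal is uncertain.

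Of 11 heavy chains and related molecules measured, 0 passed over the 3 days, 4 were higher on all 3 days and 2 lower, with a median of 0.01. H2-T24, a nonclassical gene, had the largest mean difference at 0.57 ± 0.33 (SD; adjusted p = 0.381), with 78.1, 80.1 and 53.9 in KO, against 42.3, 52.6 and 45.9 in L/L. In 1 of the 11, H2-T24, all KO arrays lay above all L/L arrays (background 7.48%), and in 2, H2-T3 and Cd1d2, all lay below (background 5.66%). H2-T24 and Cd1d2 were dim, near the filter intensity of 38.9. H2-T24 had 42.3 to 52.6 in L/L, and Cd1d2 had 40.2 to 50.5 on the 6 arrays. The difference of H2-T24 was largest on day 2 and smallest on day 5, as was that of Tap1. H2-M3, which presents formylated peptides, was at 0.17. H2-T3, the thymus leukemia antigen of enterocytes, was at -0.17. The H2-T3 probe set can also bind related transcripts, as can those of H2-D1 and H2-K1.

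**Figure D3:**
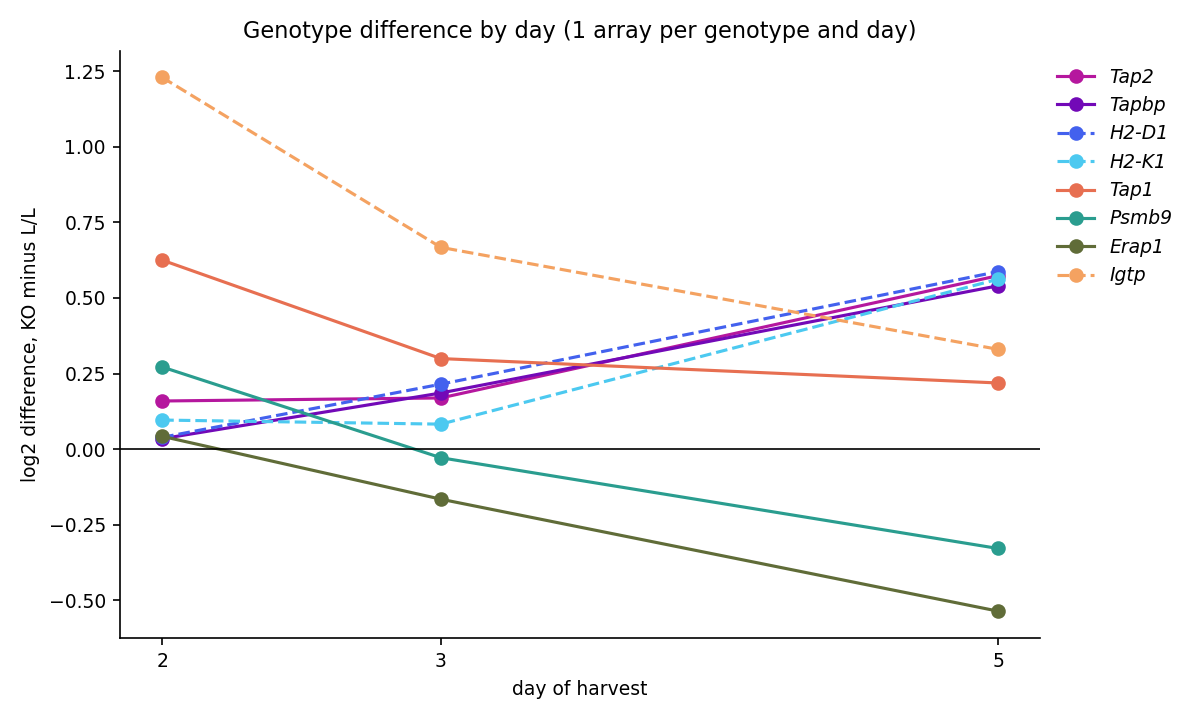
Log2 difference KO minus L/L on days 2, 3 and 5 for 5 class I processing genes (solid lines) and 3 related genes (dashed lines); each point rests on 1 array per genotype. Tap2, Tapbp, H2-D1 and H2-K1 lie between 0.54 and 0.59 on day 5, whereas Tap1, Psmb9, Erap1 and the interferon-induced GTPase gene Igtp have their highest value on day 2.

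Loading chaperones and cytosolic or luminal peptidases gave 0 of 10 past the test, 5 higher on all 3 days and 2 lower, with a median of 0.03. Thop1, a peptidase of the cytosol, was highest at 0.39 (adjusted p = 0.381) and Canx, the chaperone calnexin, lowest at -0.24 (adjusted p = 0.415). Lap3 and Blmh, both aminopeptidases, were at 0.18 and 0.15. The chaperones Calr and Pdia3 of the loading complex were at 0.02 and 0.05.

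Among 11 regulators of class I and interferon genes, 0 passed, 5 were higher on all 3 days and 0 lower, with a median of 0.11. Irf7, Stat2 and Irf9 had mean differences of 0.72, 0.50 and 0.48 (adjusted p = 0.242, 0.259 and 0.331). In these 3 of 11 all KO arrays lay above all L/L arrays (background 7.48%), and in 0 of 11 below (background 5.66%). Rela was at 0.19. Irf1, which acts on class I promoters, differed by 0.03 (adjusted p = 0.871), with 1493 to 1673 in KO, against 1472 to 1566 in L/L. Ifng did not reach the filter, with a highest intensity of 9.29 on any array.

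The medians of the class I processing genes, 0.09, 0.11 and 0.12 on days 2, 3 and 5, were below those of the antiviral genes and GTPases on each day. They were below those of the class II pathway on days 3 and 5, and on day 2 both were 0.09. The 18 antiviral genes were all higher on all 3 days, with medians of 0.64, 0.59 and 0.93 on days 2, 3 and 5, and 1, Ifit1, rose after adjustment (1.17; adjusted p = 0.0285), with Usp18, Ifit3 and Rsad2 at 1.24, 1.08 and 1.01. The 8 interferon-gamma GTPases had medians of 0.66, 0.51 and 0.40, with 0 past the test and 7 higher on all 3 days, led by Iigp1 (0.82), Igtp (0.74), Irgm2 (0.59) and Gbp6 (0.49). Igtp had its largest difference on day 2, at 1.23. The 10 genes of the class II pathway had medians of 0.09, 0.19 and 0.32, with 0 past the test and 7 higher on all 3 days, led by H2-Ab1 (0.33), Ctss (0.30), Cd74 (0.29) and H2-Eb1 (0.29). The antiviral genes and GTPases were known to differ in these samples when the lists were written, and the difference between the lists was not tested.

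**Figure D4:**
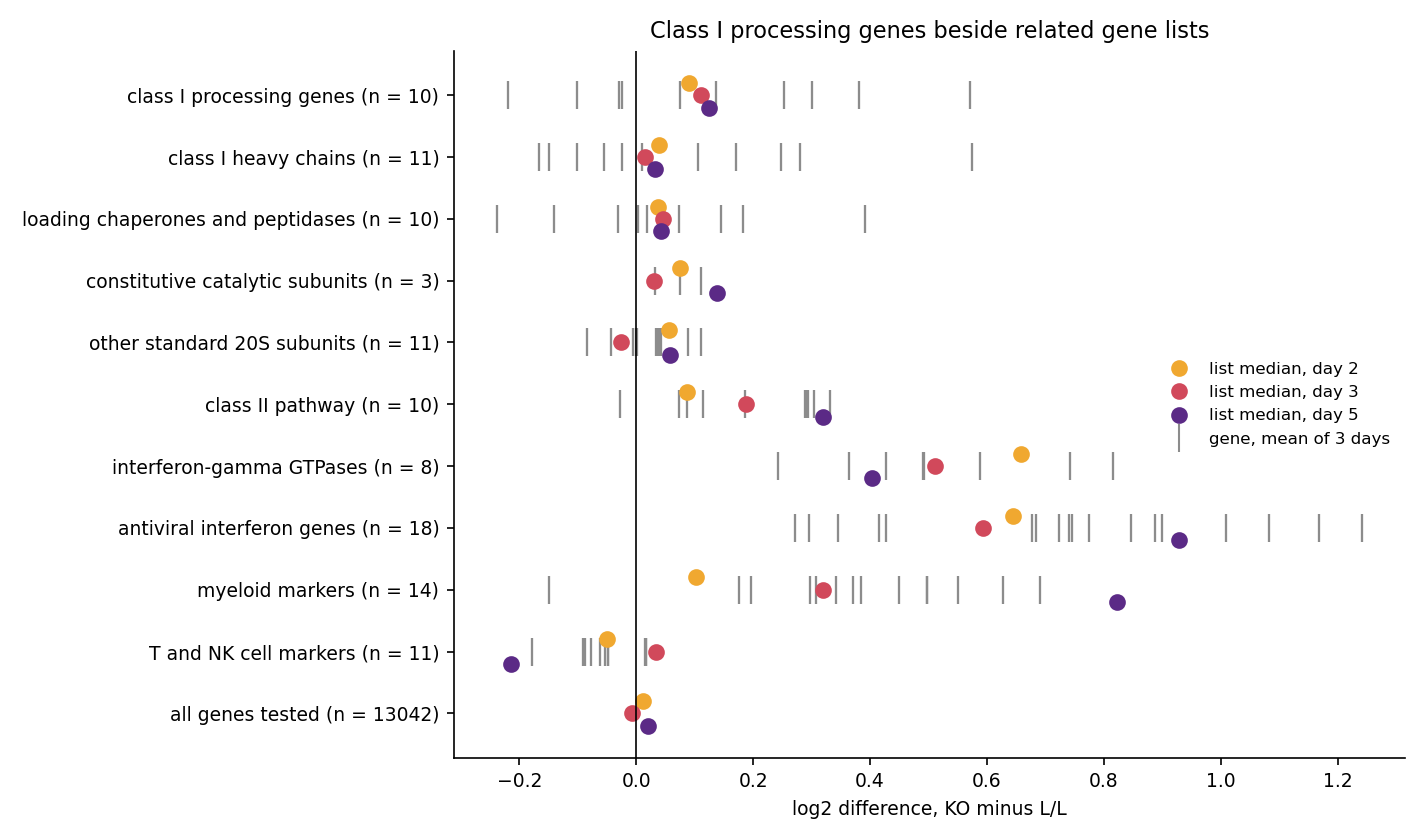
Log2 difference KO minus L/L for the class I processing genes and related lists: coloured points are the list median on each day, grey ticks the mean of 3 days for each gene, n the genes measured. The class I medians lie between 0.09 and 0.12, those of the antiviral genes between 0.59 and 0.93, and those of all genes tested between -0.01 and 0.02.

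Immune and endothelial cells express class I genes, and their markers are given beside the day 5 differences of Tap2, Tapbp and Nlrc5. The summed intensity of 14 myeloid markers was 4583, 5277 and 6473 in KO, against 4281, 4025 and 3306 in L/L. Medians were 0.10, 0.32 and 0.82 on days 2, 3 and 5, and none of the 14 passed over the 3 days. The largest means were those of Lyz2 (0.69), C1qa (0.63), C1qb (0.55) and Mrc1 (0.50). Marker by marker, 9 of 14 were higher on all 3 days (background 22.1%), 0 lower (background 17.4%) and 5 mixed. Itgam had the lowest mean, -0.15, with -0.32 on day 3 and -0.24 on day 5. Lyz2 weighs heavily in the sum, with 1145, 1315 and 2300 in KO, against 1062, 892 and 869 in L/L. The slope passed in 2 of the 14, Lyz2 at 0.43 per day (adjusted p = 0.0373) and Cd68 at 0.35 (adjusted p = 0.0454), beside a background of 0.644% rising. Cd68 was dim, with 60.2, 71.3 and 60.8 in KO on days 2, 3 and 5, against 64.4, 59.3 and 31.7 in L/L. Its L/L value of day 5 lay below the filter intensity of 38.9. Without the filter on dim probe sets 0 slopes passed over all genes, those of Lyz2 and Cd68 included. Summed T and NK cell markers, 11 measured, ranged from 2050 to 2664 in KO, against 2185 to 2634 in L/L, with medians of -0.05, 0.03 and -0.21. Their largest means were those of Cd3d (-0.18), Nkg7, Cd3e and Cd4 (-0.09, -0.09 and -0.08). Endothelial markers, 12 measured, had medians of 0.08, 0.30 and 0.50, with 8 of 12 not overlapping and higher in KO (background 7.48%). Their summed intensity was 2280, 2374 and 2635 in KO, against 2103, 1973 and 1796 in L/L. The part of myeloid and endothelial cells in the class I differences was not tested.

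Days within L/L show how far these genes moved between control pools, counted by the brightest probe set of each gene. From day 2 to day 3 all 10 genes were higher in L/L, by a median of 0.33, beside 58.2% of all genes and a median of 0.03. Tap1 moved most, by 0.90, followed by Psmb9 (0.61), Nlrc5 (0.53), Psmb8 and Tap2 (0.39 each). Tap1 and Psmb9 reached 1.5-fold, 2 of 10 (background 0.882% higher and 0.736% lower). From day 2 to day 5, by the brightest probe sets, Nlrc5 at 0.59 alone reached it, 1 of 10 (background 1.15% and 1.77%), and 8 of 10 were higher (48.3% of all genes). The second Erap1 probe set was higher by 0.72, at 251 on day 2 and 413 on day 5. Tap1 and Psmb9 stood at 0.57 and 0.53, Tap2 and Tapbp at -0.23 and -0.29. From day 3 to day 5, Tap2 was lower by more than 1.5-fold (-0.62), 1 of 10 (background 0.552% higher and 1.42% lower), and 2 of 10 were higher, beside 42.1% of all genes. By these probe sets none reached 2-fold between L/L days (background 0.123% higher and 0.0767% lower for day 3 over 2, 0.199% and 0.215% for day 5 over 2, 0.046% and 0.115% for day 5 over 3). The second Tapbp probe set did, with 781, 708 and 281 in L/L on days 2, 3 and 5. Its day 5 value differed by -1.48 from day 2 and by -1.33 from day 3.

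In KO the step from day 2 to day 3 ran from 0.00 for Erap1 to 0.58 for Tap1, with Psmb8 at 0.45 and Tap2 at 0.40. The median absolute difference of the 10 genes between L/L day 2 and day 3 was 0.33, beside 0.11, 0.16 and 0.27 between genotypes on days 2, 3 and 5. Over all genes these values were 0.12, and 0.07, 0.10 and 0.16. Day and pool cannot be told apart within L/L, since each day was 1 pool. The L/L array of day 2 enters both the day 2 genotype difference and the L/L day differences, so for Tap1 the 0.63 on day 2 and the 0.90 within L/L share its low value of 395.

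Over the 6 arrays the mean centred profile of the 10 genes was -0.07, 0.20 and 0.07 in KO on days 2, 3 and 5, against -0.25, 0.12 and -0.07 in L/L. Tap1 and Psmb8 followed the mean of the other 9 most closely (Pearson r = 0.97 each, 6 arrays), and Erap1 least (-0.16). Outside the 10, Slc9a5, Jmjd6, Mcts2, Dusp1, Lgals9, Ocel1, Cbfb and Dusp14 had the profiles most like the mean, with r between 0.965 and 0.992, among 3655 genes with a range of at least 0.5. Slc9a5 had 54.4, 92.5 and 70.1 in KO, against 41.7, 78.7 and 60.035 in L/L. These correlations describe 6 arrays that share their normalization and day order.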

How the data were processed

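Small intestine RNA was hybridised to 6 Affymetrix arrays, and the authors deposited a processed intensity for every probe set. Partek and RMA were used, per the submitters' processing notes, with no version, role or parameters. The deposited values, 3.82 to 31146, were read as linear intensities, and array medians lay between 57.7 and 59.7; log2 was taken with no pseudocount and no further normalization. Of 45101 probe sets, 64 were controls, 34945 had 1 gene, 932 several and 9160 were not named. Symbols of 34741 were updated through the gene ID to GRCm38.p6. The brightest probe set per gene was kept when its mean log2 lay above the 40th percentile (an intensity of 38.9).

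Genotype beside day as a factor, and genotype times centred day, were fitted over all 6 arrays with limma 3.58.1 in R 4.3.3 (lmFit and eBayes, two-sided, Benjamini-Hochberg over 13042 genes, threshold 0.05). These have 2 and 1 residual degrees of freedom plus priors of 3.03 and 4.76. In simulated data 200 of 13042 genes were changed, and noise was drawn from the moderated variances of the genotype fit, without day effects. There the genotype fit recovered 77.6% of genes with a difference of 0.5 on the log2 scale. The slope fit recovered 5.97% of genes with a slope of 0.25 per day and 95.5% at 0.5. On the arrays 3 genes passed the genotype test, and Nlrc5 at 0.57 did not. The simulated shares thus do not tell how often differences of these sizes pass on the arrays. As each array is 1 pool, p-values measure only how the genotype difference varied between days. Single days and days within L/L have no test. The genes named were the 10 members and, of each companion list, the genes with the largest mean differences (up to 4) plus some always named (Psmb5, Psmb6, Psmb7, Psme2, Irf1, Ifng, Fitm2, Esr1; another is not reported here); Calr, Pdia3, Psme4, H2-T3, Cd1d2, Cd68, Epcam, Vil1, Xist and Eif2s3y were named after their values were seen. Members and lists were chosen with earlier results of these data known. Alternatives were the probe set choice, the filter, an offset of 32, centring, cyclic loess, eBayes settings, leaving out a day, the day term and a 2-fold limit.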

Additional observations from a re-analysis of the deposited data

Results flagged for a closer look

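In 3 class I processing genes the genotype difference had opposite signs on different days, and no slope passed after adjustment over all genes. Psmb9 was above L/L on day 2 (0.27) and below it on day 5 (-0.33), a change of -0.60 (slope adjusted p = 0.127). Erap1 was at 0.04 on day 2 and -0.54 on day 5, a change of -0.58 (slope adjusted p = 0.12), and its second probe set gave 0.13 and -0.61. Psme1 was at 0.07 on day 2 and -0.05 on day 5, a change of -0.12 (slope adjusted p = 0.806). With 1 array per genotype and day, no single day was tested.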

How the results depend on the processing

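No member passed the genotype test under any of the 13 or 14 alternatives that kept it; adjusted p for Nlrc5 ran from 0.2 to 0.753. Genes called over all genes numbered 3, and 1 with the mean of all probe sets, 6 with a linear day term and between 0 and 2 when a day was left out. The members' median of 0.11 was 0.0410 with the mean of probe sets, under which Tap1 drops below the filter here and in every count below, -0.0243 without probe sets that can bind several transcripts and 0.12 with cyclic loess. With a day left out, the mean for Psme1 ran from -0.0700 (without day 2) to 0.00668 (without day 3) and that for Psmb9 from -0.179 (without day 2) to 0.12 (without day 5). Without day 5 the means of Tapbp, Tap2 and Erap1 were 0.11, 0.16 and -0.06, and that of Erap1 was -0.35 without day 2. With no replicate block (no day term) 3 genes were called, and adjusted p for Nlrc5, Tap1 and Tap2 was 0.678, 0.734 and 0.716. The members' median stayed at 0.11, which the balance of 1 array per genotype and day fixes in advance. The labels number no replicates, and day is the block of the fit.

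Slopes called over all genes numbered 160, but 0 without the filter, 275 with the 60th percentile filter, 550 with the offset, 312 with centring and 531 with the eBayes trend, which called 1 member, Tapbp. With centring the slopes of Psmb8 and Psmb10 turned to -0.00633 and -0.00713. The counts at 1.5-fold were 0 in each comparison at 2-fold. On day 2 the count was 0 of the 9 genes left with the mean of probe sets and 2 with centring, and on day 5 it was 2 with the mean of probe sets. Within L/L, day 3 against day 2 gave 1 of 9 with the mean of probe sets, and 1 with the offset and with cyclic loess. Day 5 against day 2 gave 2 with the mean of probe sets and 0 with the offset. Day 5 against day 3 gave 2 with the mean of probe sets and 0 without probe sets that can bind several transcripts, which removes Tap2, with the offset and with cyclic loess. Apart from these removals, the causes were not tested.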

Other observations

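Interferon receptor genes were measured in 6 cases of 10 interferons and receptors listed, with 0 past the genotype test and a median of 0.03. Ifnar2, a chain of the type I interferon receptor, had 655, 729 and 760 in KO, against 643, 663 and 421 in L/L, a difference of 0.85 on day 5 with the lowest L/L value on that day, as for Tap2 and Tapbp (mean 0.34; slope 0.29 per day, adjusted p = 0.0765). Ifngr1 was at 0.15, and Il10rb and Ifnlr1, the chains of the lambda interferon receptor, at -0.06 and 0.03. Endothelial markers had 0 of 12 past the test and 10 with differences above 0 on each day; the largest means were 0.51 for Lyve1, 0.39 for Robo4, 0.37 for Plvap and 0.35 for Esam. B and plasma cell markers had 0 of 9 past the test and a median of -0.04, with Sdc1, which epithelium also expresses, at 0.41, Ms4a1 at -0.15, Cd79b at -0.13 and Xbp1 at -0.10. Enterocyte markers had 0 of 14 past the test, 2 higher and 2 lower on all 3 days, and a median of 0.01, with Cdx1 (-0.16), Cdx2 (-0.15), Lct (-0.13) and Krt20 (0.09) farthest from 0.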
